A study of Mus musculus with 35 samples.

Results

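KLF4 is a zinc-finger transcription factor, and the results concern where it was bound in mouse cells on day 9 of reprogramming and in mouse embryonic stem cells (ESC) grown in serum. The comparison used 4 of the 22 libraries with a peak list: the 2 KLF4 libraries of day 9 and the 2 KLF4 libraries of serum ESC. Their peaks on chromosomes 1 to 19 and X were merged wherever they shared at least 1 bp, which gave 50015 regions. A region was called day 9-specific when both day 9 libraries and no ESC library had a peak in it, ESC-specific in the converse case, and common when all 4 libraries had one. By this rule 6296 regions (12.6% of all merged regions) were day 9-specific, 5514 (11.0%) were ESC-specific and 9040 (18.1%) were common. The other 29165 regions (58.3%) had any other pattern and are called mixed. Median widths were 359 bp in day 9-specific, 264 bp in ESC-specific and 508 bp in common regions, and 277 bp in all merged regions. A wider region has more bases in which to meet a peak of another library. The part of width in the shares of each class with a peak was not tested.

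The day 9 cells came from embryonic fibroblasts (MEF) of C57BL/6 x 129 background with an OKSM cassette, which codes for Pou5f1, Klf4, Sox2 and Myc, in the Col1a1 locus and the M2rtTA transactivator in ROSA26. They had been grown in ESC medium with 1 µg/ml doxycycline, which switches the cassette on, and 50 µg/ml ascorbic acid, and had been sorted for a marker that the labels give as SSEA+. The ESC were the unsorted line V6.5, also C57BL/6 x 129, kept on irradiated feeder cells in ESC medium (with serum and LIF) without doxycycline. The day 9 cells thus carried an added, induced copy of Klf4 that V6.5 does not, and the lists do not tell its product from that of the native gene. Both day 9 libraries belong to batch EA-3702, and the ESC libraries to batches EA-2697 and EA-2643, so batch and cell state cannot be told apart among these 4. Of the 6 other KLF4 libraries, 4 were from the same fibroblasts on day 3 (unsorted) and day 6 (sorted for SSEA+), with 1 library of each day in EA-3702 and in DG-4040. The other 2 were from V6.5 ESC, named 2i ESC, that had received a MEK inhibitor at 1 µM and a GSK3 inhibitor at 3 µM (batches EA-3702 and DG-3012). The labels give 15% serum and LIF at 1000 U/ml for 2i ESC as for serum ESC, so the 2i medium is not given as free of serum. A further 12 libraries mapped H3K27ac, the acetylated form of histone H3 found at promoters and enhancers in use, in untreated MEF (2), on day 3 (3), day 6 (3) and day 9 (2), and in serum ESC (2). Nothing in the labels says that replicates came from separate cultures, so the spread between them may be technical.

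KLF4 binds GC-rich sites of the form GGGNGTG and is 1 of the 4 factors whose forced expression turns fibroblasts into pluripotent stem cells. In ESC it acts beside NANOG, ESRRB and the signals of LIF, while in the body it is best known from the epithelium of skin and gut. During reprogramming, fibroblasts first lose mesenchymal traits and take on epithelial ones, and the genes that keep ESC pluripotent become active late.

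The sequences of 6 promoters under KLF4 regions are shown, 2 for each class, to let the bound DNA be read beside the values. They are the RefSeq promoters of build GRCm38.p6 (250 bases before to 50 after a gene start), written along the gene's strand with each match to GGGNGTG, on either strand, in capitals. Emp1, Mme and Arhgap28 are, of the promoters used here, those under the region with the best mean place of its class (place 3 of 6296, 166 of 5514 and 9 of 9040). Klf17, Zfp57 and Nanog were chosen for their roles after their values and matches were seen, so the share of the 6 that hold a match says nothing of the classes. The first pair is day 9-specific: Emp1, a membrane protein of epithelia (chr6:135362681-135362980, + strand), and Klf17, a relative of KLF4 (chr4:117765617-117765916, − strand).
Emp1: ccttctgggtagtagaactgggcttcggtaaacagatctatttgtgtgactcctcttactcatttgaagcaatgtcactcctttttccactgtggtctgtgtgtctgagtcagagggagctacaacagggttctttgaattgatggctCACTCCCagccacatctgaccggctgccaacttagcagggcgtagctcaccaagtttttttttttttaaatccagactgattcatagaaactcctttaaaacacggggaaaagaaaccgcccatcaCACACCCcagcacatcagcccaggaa
Klf17: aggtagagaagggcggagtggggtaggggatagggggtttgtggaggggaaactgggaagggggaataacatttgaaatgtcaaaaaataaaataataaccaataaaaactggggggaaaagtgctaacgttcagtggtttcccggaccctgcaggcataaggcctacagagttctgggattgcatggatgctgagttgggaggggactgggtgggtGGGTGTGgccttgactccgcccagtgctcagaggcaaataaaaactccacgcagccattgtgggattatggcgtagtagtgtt
The next pair is ESC-specific: Mme, a peptidase of the cell surface whose promoter overlaps its region in the last 65 bases (chr3:63294961-63295260, + strand), and Zfp57, which keeps imprinted genes methylated (chr17:37002275-37002574, + strand).
Mme: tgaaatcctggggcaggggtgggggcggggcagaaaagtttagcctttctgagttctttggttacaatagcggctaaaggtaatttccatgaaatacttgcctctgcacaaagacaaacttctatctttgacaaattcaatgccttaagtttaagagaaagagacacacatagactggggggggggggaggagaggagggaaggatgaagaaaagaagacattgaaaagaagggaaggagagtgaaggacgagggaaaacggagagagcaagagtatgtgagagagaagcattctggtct
Zfp57: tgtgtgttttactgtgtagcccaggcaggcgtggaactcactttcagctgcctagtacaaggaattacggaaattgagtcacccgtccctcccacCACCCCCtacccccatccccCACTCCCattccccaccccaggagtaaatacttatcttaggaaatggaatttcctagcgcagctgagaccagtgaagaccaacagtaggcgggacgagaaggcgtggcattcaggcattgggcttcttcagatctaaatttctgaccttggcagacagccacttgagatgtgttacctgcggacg
The last pair is common: Arhgap28 (chr17:68004059-68004358, − strand) and Nanog, a core pluripotency factor (chr6:122707239-122707538, + strand).
Arhgap28: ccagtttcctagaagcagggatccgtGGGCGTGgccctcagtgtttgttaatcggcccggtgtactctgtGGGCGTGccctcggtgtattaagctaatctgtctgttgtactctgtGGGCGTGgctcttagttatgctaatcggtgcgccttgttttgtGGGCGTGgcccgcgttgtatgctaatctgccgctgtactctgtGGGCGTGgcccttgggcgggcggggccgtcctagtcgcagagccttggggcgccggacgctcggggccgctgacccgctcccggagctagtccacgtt
Nanog: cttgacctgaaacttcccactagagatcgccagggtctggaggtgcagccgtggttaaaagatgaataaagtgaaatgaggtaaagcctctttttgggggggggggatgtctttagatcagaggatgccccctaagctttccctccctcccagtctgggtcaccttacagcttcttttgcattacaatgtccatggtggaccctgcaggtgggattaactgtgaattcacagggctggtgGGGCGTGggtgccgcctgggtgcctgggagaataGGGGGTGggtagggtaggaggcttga
The Arhgap28 promoter held 5 matches, those of Emp1, Zfp57 and Nanog 2 each, that of Klf17 1 and that of Mme 0. At Arhgap28 the 5 matches all read GGGCGTG, in a unit that recurs through the promoter. The authors' score of a peak is the whole part of 10 times its deposited −log10 p, except in 2 peaks and 1 peak of the 2 H3K27ac lists of serum ESC. A score of 0 here means that no peak was listed. At Emp1 the KLF4 score was 511 and 605 on day 9 and 0 in both serum ESC libraries. It was 1167 and 561 on day 3, 1037 and 803 on day 6, and 50 and 0 in 2i ESC. Emp1 was thus bound from day 3 on. H3K27ac was listed there in all 12 libraries, with scores of 2210 and 1888 in MEF and 943 and 889 on day 9. At Klf17 the KLF4 score was 93 and 112 on day 9, 0 in the 4 earlier libraries and 129 and 50 in 2i ESC. This region was thus absent from serum ESC only among the ESC libraries. H3K27ac was listed at Klf17 in none of the 12 libraries, those of day 9 included. At Zfp57 the KLF4 score was 45 and 67 in serum ESC and 0 in all 8 other libraries. H3K27ac was listed at Zfp57 in all 12 libraries, with 1356 and 952 in MEF, 969 and 1271 on day 9 and 1850 and 1613 in serum ESC. At Mme the KLF4 score was 152 and 237 in serum ESC and 92 and 88 in 2i ESC. It was 50 and 47 on day 3, 31 and 0 on day 6 and 0 in both day 9 libraries. H3K27ac was listed at Mme in all 12 libraries. At Nanog the KLF4 score was 239 in both day 9 libraries and 215 and 227 in serum ESC. It was 79 and 125 in 2i ESC, 87 and 31 on day 6 and 0 on day 3. The Nanog promoter thus had a peak in both states compared here, while H3K27ac over it scored 98 and 70 on day 9 and 1581 and 1311 in serum ESC.

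The lists themselves differed before any class was formed. The day 9 lists held 24004 and 26003 peaks with median widths of 316 and 317 bp, and the ESC lists held 21129 (EA-2697) and 34640 (EA-2643) peaks with median widths of 178 and 214 bp. Read numbers are not given, so depth is unknown, and a region without a listed peak may still hold signal. In bulk chromatin, fewer cells with a bound site and weaker binding in each cell cannot be told apart. Of the day 9 peaks, 81.9% of replicate 1 overlapped replicate 2 and 75.4% the other way. Of the ESC peaks, 82.8% of the shorter list (EA-2697) overlapped the longer and 48.2% of the longer overlapped the shorter. The Jaccard index of covered bases (shared over joint length) was 0.577 for the day 9 pair, 0.356 for the ESC pair and 0.222 to 0.298 for the 4 pairs of 1 day 9 and 1 ESC library. The mean within a state exceeded that between states by 0.207 (0.467 against 0.259, n = 4 libraries), and the one-sided exact permutation test over the 3 distinct labelings gave p = 0.333, the smallest they can give. The excess was 0.0963 and 0.0981 without day 9 replicate 1 or 2, and 0.354 without the EA-2643 library.

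The ESC library of batch EA-2643 accounted for many of the mixed regions. The most frequent mixed pattern was a peak in that library alone (11725 regions). Another 3660 regions had a peak in both day 9 libraries and EA-2643, against 375 in both day 9 libraries and EA-2697. Leaving out a library loosens the rule, so larger classes were built in. Without EA-2697, 17323 regions would be ESC-specific. Without EA-2643, 8661 would be ESC-specific and 10004 day 9-specific, and without day 9 replicate 1, 10354 would be day 9-specific. With peaks of a deposited q-value of at most 0.01 alone, 4927 regions were day 9-specific, 2449 ESC-specific and 4480 common.

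Specific regions rested on weaker peaks than common regions in each of the 4 lists. Each list was ordered by the authors' score and a peak's place was given in percent, with the strongest at the top. In the 2 day 9 lists the median place of the best peak in a day 9-specific region was 53.8% and 51.5%, against 29.3% and 26.4% in common regions. In the ESC lists it was 52.8% (EA-2697) and 39.2% (EA-2643) in ESC-specific regions, against 32.3% and 19.6% in common regions. The median deposited fold enrichment in day 9-specific regions was 4.33 and 4.57, against 5.46 and 6.03 in common regions of the same lists. In ESC-specific regions it was 3.86 and 2.97, against 4.59 and 3.81. These values belong to the peaks that chose the regions and are given as a description. At the border of the rule, the weaker of the 2 defining peaks had a −log10 p under 3 in 958 day 9-specific regions (15.2%) and in 1214 ESC-specific regions (22.0%). Just outside it, the single ESC peak in the 3660 regions shared by day 9 and EA-2643 had a median −log10 p of 5.22, and that in the 375 shared with EA-2697 had 3.67.

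**Figure D1:**
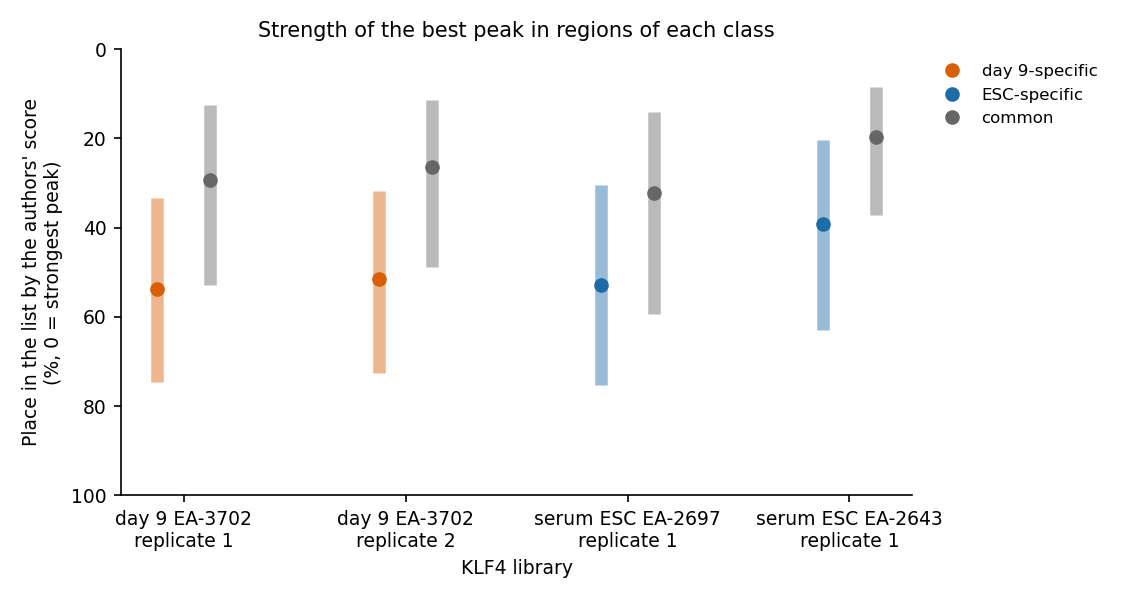
Place of the best peak of a region in its list (y axis, percent, 0 is the strongest peak by the authors' score) for the 4 KLF4 libraries (x axis), with points for medians and bars for the quartiles over regions. Day 9-specific medians sit at 53.8% and 51.5% and ESC-specific medians at 52.8% and 39.2%, weaker places than the common medians of 19.6% to 32.3%.

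Of the 8 strongest day 9-specific regions, those near Krt80 and Mmp7 had no KLF4 peak on day 3. The region with the second best mean place lay 20.5 kb from Krt80, a keratin of differentiating epithelium (chr15:101327195-101327773). Its KLF4 score was 664 and 812 on day 9, 59 and 67 on day 6, 0 in both day 3 and both serum ESC libraries, and 0 and 31 in 2i ESC. KLF4 was thus listed there from day 6 on. A region 21.9 kb from Mmp7, an epithelial matrix protease (chr9:7721512-7722022), had 488 and 461 on day 9, 0 and 145 on day 6 and 0 in the 6 other libraries. Its H3K27ac score was 593 and 440 on day 9 and 0 in all 10 other H3K27ac libraries, so on day 6 KLF4 was listed in 1 library and acetylation in none.

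Other leading day 9-specific regions were bound from day 3 on. In the body of Col6a5, a collagen gene (chr9:105892408-105893121), the KLF4 score was 571 and 248 on day 3, 682 and 825 on day 6, 447 and 604 on day 9 and 0 in all 4 ESC libraries. A region 151.0 kb from Pou3f1, a POU factor of epiblast and neural cells (chr4:124506138-124506687), had 335 and 350 on day 3, 214 and 596 on day 6, 431 and 559 on day 9 and 0 in ESC of either medium. In the body of Adgrd1, an adhesion receptor (chr5:129113339-129114144), it had 62 and 73 on day 3, 249 and 433 on day 6, and 498 and 598 on day 9, with 0 in ESC. Beyond the 4 libraries that define the class, KLF4 was thus listed in these 3 regions in all 4 day 3 and day 6 libraries and in neither 2i library. H3K27ac was listed on day 9 in all 3, with 528 and 476 at Col6a5, 230 and 343 at the Pou3f1 region and 702 and 544 at Adgrd1. It was listed in no serum ESC library at any of them. Of the 8 strongest regions, those at Zfp516 (22 and 27) and Emp1 (84 and 102) had H3K27ac in both serum ESC libraries. The regions at Zfp516, a zinc-finger gene (chr18:82935270-82935834, 719 and 803 on day 9), and near Lsm4, of the LSM family of RNA-binding proteins (chr8:70681313-70681820, 566 and 482), also had a KLF4 peak in each day 3 and day 6 library.

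The 8 strongest ESC-specific regions all lay outside gene bodies, 26.4 to 1713.7 kb from the nearest. The first lay 147.1 kb from Mycn, a MYC family factor (chr12:12787957-12789016). Its KLF4 score was 679 and 1031 in serum ESC, 494 and 171 in 2i ESC and 0 in all 6 reprogramming libraries. Its H3K27ac score was 920 and 739 in serum ESC, 53 and 128 on day 9 and 0 in MEF, on day 3 and on day 6. Acetylation was therefore listed on day 9 where KLF4 was not. The region 39.0 kb from Pim1, a kinase gene that responds to LIF and STAT3 (chr17:29450890-29451774), had KLF4 scores of 354 and 763 in serum ESC, 177 and 135 in 2i ESC, 65 and 58 on day 3, 75 and 104 on day 6 and 0 on day 9. H3K27ac was listed there in all 12 libraries, at 61 to 328 in the 10 outside ESC and at 988 and 725 in ESC.

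A region 143.4 kb from Cited2, a coactivator of CBP and p300 (chr10:17579418-17579869), had KLF4 scores of 555 and 994 in serum ESC and 840 and 337 in 2i ESC. It had 59 and 81 on day 3, 0 and 53 on day 6 and 0 on day 9, and H3K27ac scores of 798 and 735 in serum ESC. The region 51.5 kb from Ssbp3, a cofactor of LIM domain factors (chr4:106859461-106859986), had KLF4 scores of 406 and 807 in serum ESC and H3K27ac scores of 1115 and 1161 there. Its H3K27ac score was 148 and 121 in MEF and 0 on days 3, 6 and 9. In these 2 regions the acetylation listed in ESC was absent from both day 9 lists. Not all strong ESC-specific regions were acetylated. The region 53.2 kb from Rgs6, a regulator of G protein signalling (chr12:82562885-82563395), had KLF4 scores of 367 and 710 in serum ESC, 74 and 81 on day 3, 53 and 0 on day 6 and 0 in 2i ESC. It had no H3K27ac peak in any library. A region 1713.7 kb from its nearest gene, Cntnap5a (chr1:113970623-113971057), had 679 and 924 in serum ESC, 50 and 0 in 2i ESC and no H3K27ac peak in any library.

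The strongest common regions stood near the head of all 4 lists. The first, 32.5 kb from Grap, an adaptor of receptor signalling (chr11:61619793-61620792), had KLF4 scores of 1088 and 1410 on day 9 and 1879 and 1494 in serum ESC. It also had 2811 and 2412 on day 3. Its H3K27ac score was 380 and 406 in MEF and 0 to 152 in the other libraries. A region outside Klf13, another KLF gene (chr7:63956932-63957573), had KLF4 scores of 1270 and 1412 on day 9 and 456 and 885 in serum ESC. Its H3K27ac score was 0 in both MEF libraries, 3364 and 4161 on day 9 and 1323 and 1080 in serum ESC. A region 26.1 kb from Cd9, a tetraspanin of stem cell membranes (chr6:125433433-125434192), likewise had an H3K27ac score of 0 in MEF, beside 1390 and 1721 on day 9 and 1205 and 953 in serum ESC. Scores depend on the depth of a library and were compared between libraries only as listed or not listed, or as values side by side.

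**Figure D2:**
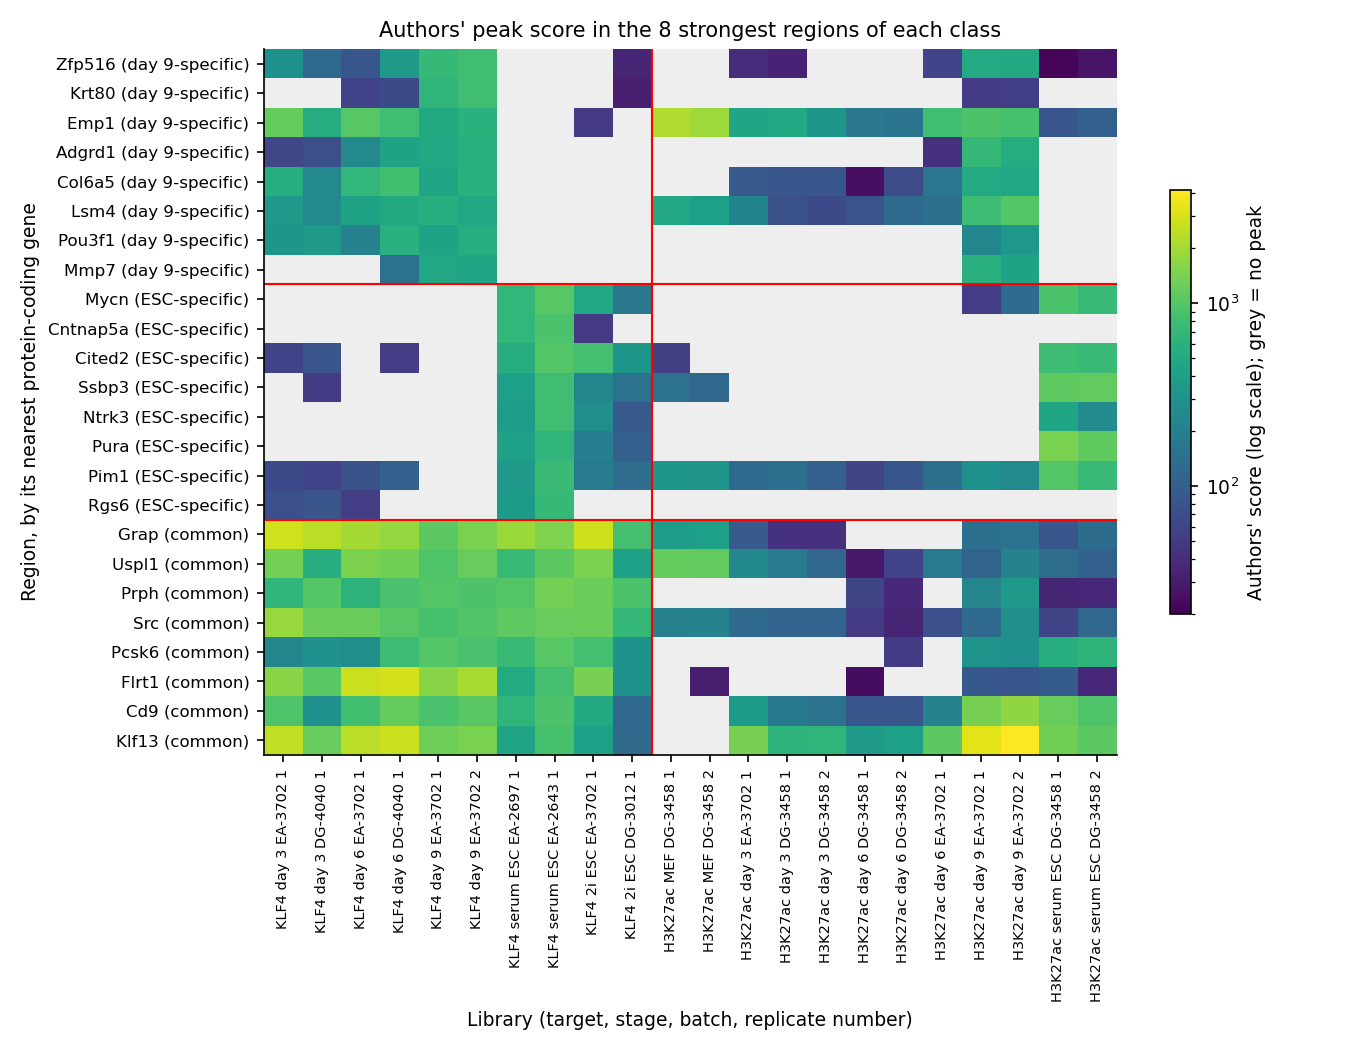
Authors' peak score (colour, log scale, grey where no peak is listed) in the 8 regions of each class with the best mean place (rows, named by the nearest protein-coding gene) in 22 libraries (columns; red lines part the classes and the KLF4 from the H3K27ac libraries). All 8 day 9-specific regions have H3K27ac in both day 9 libraries, and 6 of the 8 ESC-specific regions have it in both serum ESC libraries.

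The 6 KLF4 libraries that played no part in the rule placed the 2 specific classes with different cells. Of the day 9-specific regions, KLF4 was listed at 54.0% and 42.8% on day 3, 46.7% and 61.7% on day 6, and 6.80% and 7.99% in 2i ESC. Of the ESC-specific regions it was listed at 26.2% and 17.8% on day 3, 17.2% and 15.6% on day 6, and 53.8% and 58.3% in 2i ESC. Common regions were high throughout, at 72.7% to 86.3%, and all merged regions lay between 33.3% and 43.7%. In each of these pairs the EA-3702 library, of the batch of the day 9 libraries, is given first. Its share of day 9-specific regions was the higher on day 3 (54.0% against 42.8% in DG-4040) and the lower on day 6 (46.7% against 61.7% in DG-4040) and in 2i ESC (6.80% against 7.99% in DG-3012).

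For each library the share of ESC-specific regions minus that of day 9-specific regions was taken. It averaged 48.6 ± 2.34 percentage points in 2i ESC (SD, n = 2), −26.4 ± 2.01 on day 3 (SD, n = 2) and −37.8 ± 11.8 on day 6 (SD, n = 2). The 2i libraries did not overlap the others, and their mean exceeded that of days 3 and 6 by 80.7 points. The two-sided exact permutation test over 15 labelings gave p = 0.0667, the smallest 2 against 4 libraries can give (0.111 after Benjamini-Hochberg adjustment over the 5 tests of the study). Within batch EA-3702 alone, with 1 library per stage, the difference was 75.6 points.

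**Figure D3:**
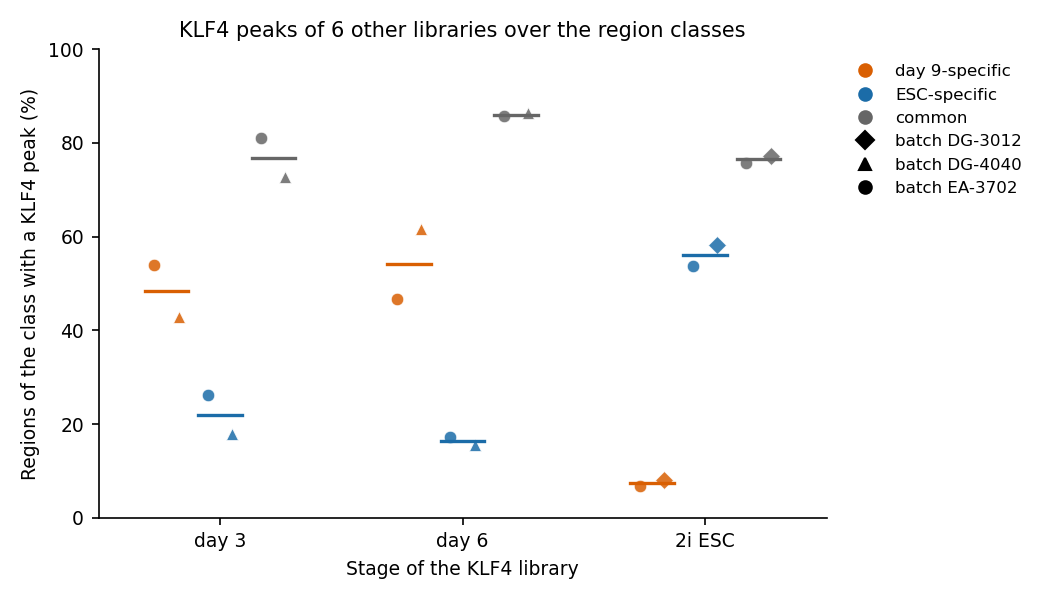
Share of the regions of each class with a KLF4 peak (y axis, percent) in the 6 KLF4 libraries outside the rule (x axis by stage), with 1 point per library, shaped by batch, and lines at the means. Day 9-specific shares are 42.8% to 61.7% on days 3 and 6 and 6.80% and 7.99% in 2i ESC, while ESC-specific shares are 15.6% to 26.2% and then 53.8% and 58.3%.

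The histories of the regions varied within each class. Of the day 9-specific regions, 1684 (26.7%) also had a KLF4 peak in both day 3 and both day 6 libraries, and 1483 (23.6%) had one in none of these 4. A peak in both day 6 and no day 3 library was rarer, at 278 regions (4.42%, against 2.48% of all merged regions). The converse, both day 3 and no day 6 library, was found at 131 (2.08%, against 2.26%). In 2i ESC, 5548 (88.1%) had no peak and 183 (2.91%) had one in both libraries. Of the ESC-specific regions, 3433 (62.3%) had no peak on day 3 or day 6, and 268 (4.86%) had one in all 4 of those libraries. In 2i ESC, 2312 (41.9%) had a peak in both libraries and 1646 (29.9%) in neither. Common regions had a peak in all 4 day 3 and day 6 libraries in 5650 cases (62.5%) and in none of them in 414 (4.58%). Among all merged regions these shares were 20.8% and 41.3%.

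In each specific class H3K27ac was listed most often in the cells that gave the class its name. At day 9-specific regions it was listed at 69.4% and 68.7% on day 9 and at 18.3% and 17.3% in serum ESC. In MEF it was listed at 19.2% and 19.5% of them, on day 3 at 20.8% to 31.2% and on day 6 at 9.91% to 24.3%. At ESC-specific regions it was listed at 65.1% and 63.3% in serum ESC, 31.7% and 33.8% on day 9, 26.7% and 26.8% in MEF, 16.8% to 22.7% on day 3 and 9.99% to 15.3% on day 6. Common regions were acetylated at 85.7% and 86.5% on day 9 and at 81.6% and 80.4% in serum ESC. Of all merged regions, 53.5% and 54.3% had H3K27ac on day 9 and 51.0% and 49.3% in serum ESC. The share of all merged regions was 33.3% and 33.6% in MEF, 26.9% to 34.7% on day 3 and 19.7% to 28.9% on day 6. At day 9-specific regions the 2 day 9 libraries stood above all 10 others, and at ESC-specific regions the 2 ESC libraries did.

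Those differences were set against the spread over all 12 H3K27ac libraries. The share of ESC-specific minus that of day 9-specific regions was 46.4 ± 0.578 percentage points in serum ESC (SD, n = 2) and averaged −8.59 over the 10 other libraries, a difference of 55.0 points. The two-sided exact permutation test over 66 labelings gave p = 0.0152, the smallest possible, and 0.0758 after adjustment over the 5 tests. On day 9 the value was −36.3 ± 2.03 points (SD, n = 2) against 7.95 in the 10 other libraries, a difference of −44.3 points (exact permutation p = 0.0303, adjusted 0.0758). Neither passed 0.05 after adjustment. The MEF libraries stood at 7.47 and 7.31 and the day 3 and day 6 libraries between −9.04 and 0.0817, so none of these 8 came near either pair. Day 3 and day 6 libraries of batch EA-3702, the batch of the day 9 libraries, had −8.52 and −9.04, and within that batch the day 9 difference was −27.5 points (exact permutation p = 0.333, the smallest possible there). With H3K27ac and region required to share 50% of the shorter interval the ESC difference was 34.4 points. With 1 of the 2 ESC H3K27ac libraries left out the ESC difference was 54.6 or 55.4 points. With 1 of the 2 day 9 H3K27ac libraries left out the day 9 difference was −42.8 or −45.7 points. The 11 labelings then left can give no p under 0.05, so no p is given for them. The H3K27ac lists covered 9.21 to 83.5 Mb each, with 48.9 and 49.5 Mb on day 9 and 66.3 and 62.3 Mb in serum ESC, and the part of that spread in these shares was not tested.

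**Figure D4:**
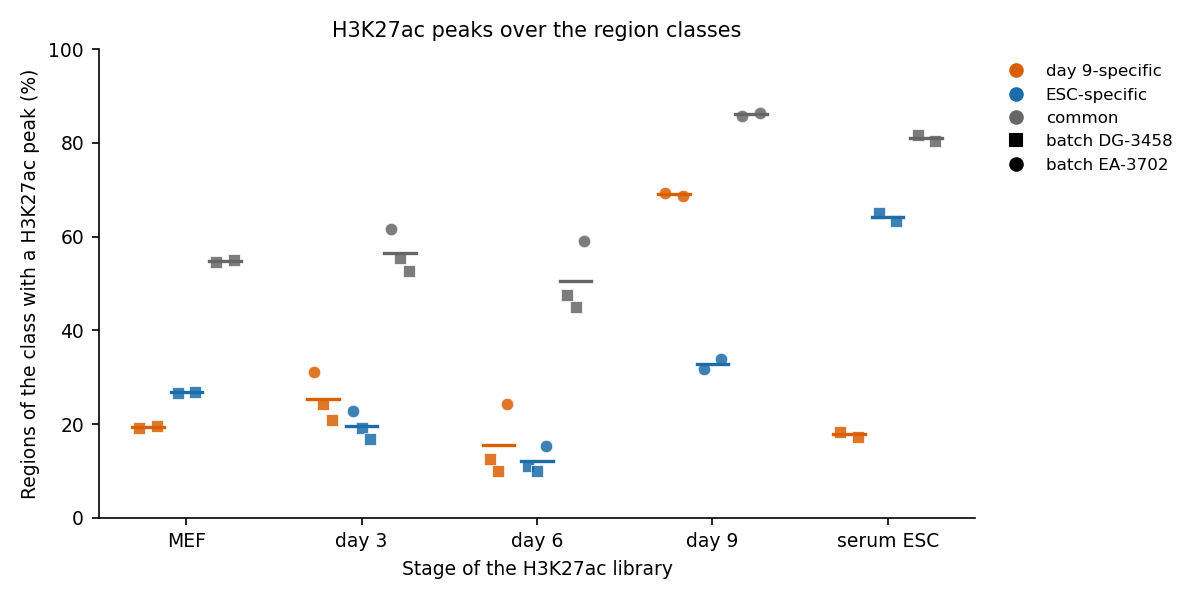
Share of the regions of each class with an H3K27ac peak (y axis, percent) in 12 H3K27ac libraries (x axis by stage), with 1 point per library, shaped by batch, and lines at the means. Day 9-specific regions reach 69.4% and 68.7% on day 9 alone, ESC-specific regions reach 65.1% and 63.3% in serum ESC alone, and common regions are above 80% in both.

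Within the day 9-specific class, regions bound since day 3 carried H3K27ac in a larger share on day 9 than regions without an earlier peak. Of the 1684 regions also bound by KLF4 in all day 3 and day 6 libraries, 84.2% ± 0.462 (SD, n = 2) had H3K27ac on day 9, 48.8% ± 9.53 on day 3 (SD, n = 3) and 15.2% and 15.8% in the 2 serum ESC libraries. Of the 1483 bound in none of those libraries, 51.4% ± 2.00 had it on day 9, 4.99% ± 1.66 on day 3 and 12.7% ± 1.62 in serum ESC. In untreated MEF the shares were 25.8% ± 0.0420 of the 1684 and 8.53% ± 0.238 of the 1483 (SD, n = 2). On day 6 they were 28.0% ± 14.8 and 2.79% ± 1.86 (SD, n = 3). The 2 subsets thus already differed in MEF, and the part of earlier KLF4 binding in the day 9 difference was not tested. Of the ESC-specific regions, the 2312 bound in both 2i libraries had H3K27ac in serum ESC at 70.4% ± 1.13 and the 1646 bound in neither at 54.9% ± 1.63 (SD, n = 2 each). The 3433 ESC-specific regions with no KLF4 on day 3 or day 6 were acetylated at 61.7% ± 1.38 in serum ESC and at 18.6% ± 1.57 on day 9. A total of 2853 day 9-specific regions (45.3%) had H3K27ac in both day 9 and no serum ESC library, against 37 (0.588%) in the converse state. Among ESC-specific regions these counts were 128 (2.32%) and 1607 (29.1%). No H3K27ac library had a peak at 1304 day 9-specific (20.7%) and 1294 ESC-specific regions (23.5%).

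Specific regions lay away from gene starts. A protein-coding gene start lay within 2.5 kb of 885 day 9-specific (14.1%), 1385 ESC-specific (25.1%) and 4346 common regions (48.1%), against 30.3% of all merged regions. Over whole lists, 33.2% ± 0.219 of day 9 peaks (SD, n = 2) and 38.3% ± 2.16 of ESC peaks (SD, n = 2) lay within 2.5 kb of a gene start, a difference of −5.08 percentage points. The lists did not overlap, but the two-sided exact permutation test over 6 labelings could give no p under 0.333, and gave that value. The difference was −2.85 points for a window of 500 bp and −3.14 points for peaks of a q-value of at most 0.01. H3K27ac set the specific classes apart more widely away from gene starts than near them. The 5411 day 9-specific regions with no gene start within 2.5 kb had H3K27ac at 66.7% ± 0.562 on day 9 and 12.2% ± 0.627 in serum ESC. The 4129 such ESC-specific regions had it at 23.0% ± 1.39 on day 9 and 60.2% ± 1.63 in serum ESC (SD, n = 2 each). The 885 day 9-specific regions near a gene start had it at 83.6% ± 0.160 on day 9 and 52.4% ± 1.36 in serum ESC. The 1385 ESC-specific regions near a start had it at 61.9% ± 1.94 on day 9 and 76.1% ± 0.357 in serum ESC. In MEF these 2 groups near starts had it at 56.6% ± 0.799 and 58.2% ± 0.0511 (SD, n = 2 each).

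Pluripotency genes gathered ESC-specific and common regions. Of 28 listed genes, 20 had an ESC-specific region within 10 kb of the gene body, 20 a common one and 3 a day 9-specific one. Among all 21627 protein-coding genes the shares were 18.1%, 34.1% and 18.6%, against 71.4%, 71.4% and 10.7% in the list. Both a day 9-specific and an ESC-specific region lay by 2 of the 28 genes, against 4.35% of all genes. Within 50 kb the list had 25, 22 and 7 genes with an ESC-specific, common and day 9-specific region (all genes 36.6%, 53.9% and 35.8%), and within 2.5 kb it had 17, 16 and 3 (13.3%, 27.8% and 14.4%). Long genes can hold more regions of any class, and list and background were not matched for length. The 20 genes held 38 ESC-specific regions, of which 34 had H3K27ac in both serum ESC libraries, 10 in both day 9 libraries and 23 in both ESC and no day 9 library. Over all ESC-specific regions these states made up 58.9%, 28.5% and 29.1%. Neighbouring regions can lie under the same stretch of H3K27ac, as 6 of the 38 did at Dppa5a, so they are not separate observations. A KLF4 peak was listed in a 2i library at 31 of the 38, while 29.9% of the class had none in either, and in no day 3 or day 6 library at 32, against 62.3% of the class. Of the 28 listed genes, with or without an ESC-specific region, H3K27ac lay within 2.5 kb of the start of 21 and 22 in the day 9 libraries, 28 in both serum ESC libraries and 7 in both MEF libraries. Among all protein-coding genes the share was 58.0% and 59.1% on day 9, 60.4% and 60.3% in serum ESC and 60.2% in both MEF libraries. Dppa2, Dppa3, Dppa4 and Tcl1 had no H3K27ac peak within 10 kb in either day 9 library.

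The member with most ESC-specific regions was Dppa5a, a germ cell and ESC protein, with 6 regions around a gene of 1.15 kb. KLF4 peaks within 10 kb of it numbered 7 in both serum ESC libraries, 5 in both 2i libraries, 0 in both day 9 libraries, 0 in both day 6 libraries and 1 and 0 on day 3. The strongest (chr9:78371464-78371769) had KLF4 scores of 151 and 432 in serum ESC. All 6 lay under 1 stretch of H3K27ac in serum ESC, with scores of 1458 and 1135, where the other stages had no peak. Elsewhere within 10 kb of the gene, 1 H3K27ac peak was listed in both day 9 libraries and in MEF replicate 2. Esrrb, an orphan nuclear receptor of naive pluripotency, had 5 ESC-specific and 2 common regions. Its KLF4 peaks numbered 8 and 12 in serum ESC, 10 and 14 in 2i ESC, 3 and 2 on day 9, 1 and 2 on day 6 and 0 on day 3. The region chr12:86501513-86502123 had KLF4 scores of 81 and 432 in serum ESC and 203 and 125 in 2i ESC, and H3K27ac scores of 1498 and 1254 in serum ESC and 0 on day 9. The gap between serum ESC and day 9 follows from the choice of these genes. Of the 6 libraries that the rule did not use, both 2i libraries stood above all 4 of day 3 and day 6 at both genes.

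The other leading members held fewer ESC-specific regions. They too were ranked on specific regions, so any gap between serum ESC and day 9 follows from the choice. Nr5a2, a nuclear receptor that can stand in for Pou5f1 in reprogramming, had 6 KLF4 peaks in both serum ESC, 5 in both 2i and 3 in both day 9 libraries, with 3 ESC-specific and 2 common regions. Tbx3, a T-box factor of naive cells, had 5 in both serum ESC libraries, 4 and 8 in 2i ESC and 0 and 1 on day 9. Tfcp2l1, a factor downstream of LIF, had 7 and 9 in serum ESC and 4 and 5 on day 9, with 3 ESC-specific and 4 common regions. Tet2, an enzyme that oxidises methylated cytosine, held 2 regions of each class, and its peak numbers overlapped, at 8 and 9 on day 9 and 7 and 10 in serum ESC. Pou5f1 held 1 ESC-specific region (chr17:35502815-35503036, scores 75 and 77 in serum ESC and 0 on day 9) beside 2 common ones. Nanog and Zfp42, a marker of naive cells, held 2 common regions each and no specific one. Dppa2, Dppa3 and Dppa4 held 1 ESC-specific region each and had no KLF4 peak on day 9.

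Among 22 listed genes of the LIF, BMP, WNT and FGF pathways, 9 (40.9%) had an ESC-specific and 3 (13.6%) a day 9-specific region within 10 kb, against 18.1% and 18.6% of all genes. Within 50 kb they were 15 and 9 genes (68.2% and 40.9%), against 36.6% and 35.8% of all genes, so the day 9-specific share was below that of all genes at 10 kb and above it at 50 kb. Smad7, an inhibitor of TGF-beta signalling, had 4 ESC-specific regions, and its KLF4 peaks numbered 5 and 9 in serum ESC, 3 and 2 on day 9 and 9 and 10 on day 3. Lifr, the LIF receptor, had 3 ESC-specific regions and 4 and 9 KLF4 peaks in serum ESC, 6 and 7 in 2i ESC and 1 and 2 on day 9. The region at chr15:7115825-7116037 had KLF4 scores of 41 and 45 in serum ESC and H3K27ac scores of 1155 and 1236, with none on day 9. Smad6, a BMP inhibitor, went the other way, with 3 day 9-specific and 1 ESC-specific region. Its peak numbers, 7 and 9 on day 9 and 5 and 8 in serum ESC, overlapped.

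Epithelial genes held regions of both classes. Of 23 listed genes, 9 (39.1%) had a day 9-specific, 6 (26.1%) an ESC-specific and 18 (78.3%) a common region within 10 kb, against 18.6%, 18.1% and 34.1% of all genes. Within 50 kb the first 2 counts were 16 and 15 (all genes 35.8% and 36.6%). H3K27ac was listed at the start of 22 of the 23 genes (95.7%) in both day 9 and both serum ESC libraries and of 7 (30.4%) in both MEF libraries, beside 58.0% to 60.4% of all genes in these 6 libraries. Cdh1, which codes for E-cadherin, held 4 ESC-specific and 4 common regions and no day 9-specific one, and its KLF4 peaks numbered 8 and 9 on day 9 and 8 and 17 in serum ESC. At chr8:106603908-106604246 by Cdh1, KLF4 was listed in serum ESC alone of the 2 states (66 and 103), while H3K27ac was listed in both states, with scores of 1526 and 1556 on day 9 and 562 and 433 in ESC. Cldn4, a claudin of tight junctions, held 3 ESC-specific and 2 common regions. Dsp, a desmosome protein, held 2 day 9-specific, 1 ESC-specific and 2 common regions. Cldn7, Esrp1, Ovol1 and St14 held 2 day 9-specific regions each and no ESC-specific one. Of the 23 genes, 9 held more day 9-specific than ESC-specific regions and 4 held more ESC-specific ones.

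Genes of stratified epithelium held day 9-specific regions in 6 of 19 cases (31.6%) and an ESC-specific one in 1 (5.26%), against 18.6% and 18.1% of all genes. Within 50 kb these counts were 10 and 3 (52.6% and 15.8%, all genes 35.8% and 36.6%), and within 2.5 kb 4 and 0 (all genes 14.4% and 13.3%). The 6 genes were Krt5, Krt6a and Krt15, which are keratins of skin, Ppl and Evpl, which code for plaque proteins, and Sprr1a, a protein of the cornified envelope. Their KLF4 scores on day 9 were 30 and 89 at Krt5 (chr15:101704727-101705033), 112 and 70 at Krt6a (chr15:101689003-101689552) and 36 and 29 at Krt15 (chr11:100121551-100121840). They were 93 and 84 at Evpl, 116 and 123 at Sprr1a, and 32 and 48 and 22 and 29 at the 2 regions of Ppl, so the 7 regions were spread over a wide range. H3K27ac was listed at both day 9 and neither ESC library at 4 of the 7 regions, near the 45.3% of all day 9-specific regions, among them those of Krt5 (129 and 118) and Krt6a (135 and 97). H3K27ac at the starts of these 19 genes was listed for 9 in both day 9 libraries, 6 and 7 in serum ESC and 5 and 7 in MEF (26.3% to 47.4%), below the share among all genes in each of these libraries. The part of cells of this kind among the sorted cells was not tested. Trp63, Ivl, Krt14 and Dsg3 held no specific region.

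Genes of surface markers, among them those that make the SSEA1 epitope, held day 9-specific regions in 6 of 12 cases (50.0%) and ESC-specific ones in 4 (33.3%), against 18.6% and 18.1% of all genes. Within 2.5 kb both counts were 3 (all genes 14.4% and 13.3%), and within 50 kb they were 9 and 7 (all genes 35.8% and 36.6%). Podxl, a sialomucin, held 2 day 9-specific regions, with KLF4 scores of 36 and 80 and of 52 and 70, and Cd24a and Cd47 held 2 each. Pecam1, an adhesion protein that marks late, ESC-like cells, held 3 ESC-specific regions and had 6 and 8 KLF4 peaks in serum ESC, 4 and 7 in 2i ESC and 1 and 0 on day 9. None of the 7 ESC-specific regions of the list had H3K27ac in both day 9 libraries, against 28.5% of the class, and 6 had it in both serum ESC libraries, against 58.9%. Fut9, the enzyme that makes the SSEA1 epitope, held 1 day 9-specific and 2 common regions.

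The KLF and SP factors held specific regions of both kinds, with a day 9-specific one at 6 of 19 genes (31.6%) and an ESC-specific one at 7 (36.8%), against 18.6% and 18.1% of all genes. The order of these counts turned within 2.5 kb, at 5 and 3 (26.3% and 15.8%, all genes 14.4% and 13.3%), and within 50 kb they were 8 and 12 (42.1% and 63.2%, all genes 35.8% and 36.6%). Klf9 held most, with 3 day 9-specific, 4 ESC-specific and 2 common regions within 10 kb. Around its start, acetylated in all 12 H3K27ac libraries, a day 9-specific region (chr19:23140107-23140413, 76 and 116 on day 9) and an ESC-specific one (chr19:23141387-23141694, 58 and 46 in serum ESC) lay on either side of a common one (chr19:23140629-23141120). Klf4 itself held 1 day 9-specific region (chr4:55523712-55524054), with scores of 80 and 52 on day 9 and 0 in the 8 other libraries, and a common region over its promoter. Of 12 AP-1 genes, factors that maintain the fibroblast state, 3 had a day 9-specific and 6 (50.0%) an ESC-specific region, against 18.6% and 18.1% of all genes. Within 2.5 kb these counts were 2 and 4 (16.7% and 33.3%, all genes 14.4% and 13.3%), and within 50 kb 6 and 8 (50.0% and 66.7%, all genes 35.8% and 36.6%). At Junb, 3 day 9-specific and 1 ESC-specific region lay within 10 kb.

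Gene lists outside the pluripotent and epithelial programmes were mixed. Of 25 fibroblast and mesenchymal genes, 5 had a day 9-specific and 5 an ESC-specific region, both 20.0% and close to the background. Within 2.5 kb they were 4 and 2 genes (all genes 14.4% and 13.3%), and within 50 kb 9 and 7 (36.0% and 28.0%, all genes 35.8% and 36.6%). H3K27ac at their starts was listed for all 25 genes in MEF, where 60.2% of all genes had it, for 14 and 15 (56.0% and 60.0%) on day 9 and for 15 and 13 (60.0% and 52.0%) in serum ESC. Of 18 genes of formative and primed epiblast, 4 (22.2%) had a day 9-specific and 8 (44.4%) an ESC-specific region, of 18 extraembryonic genes 2 (11.1%) and 5 (27.8%), and of 14 housekeeping genes 2 (14.3%) and 6 (42.9%), against 18.6% and 18.1% of all genes. Within 2.5 kb these pairs were 5.56% and 38.9%, 5.56% and 27.8%, and 7.14% and 21.4%, against 14.4% and 13.3%. Within 50 kb they were 38.9% and 66.7%, 16.7% and 33.3%, and 21.4% and 57.1%, against 35.8% and 36.6%, so several were near or below the background. The housekeeping share of 42.9% for ESC-specific regions was thus as far above 18.1% as that of several chosen lists. Elf5, a trophoblast factor, held 4 day 9-specific regions and no other, 1 of them over its promoter. Its KLF4 peaks numbered 5 and 6 on day 9, 2 and 1 on day 3, 2 and 3 on day 6, 0 and 1 in serum ESC and 0 and 2 in 2i ESC. The strongest H3K27ac there (chr2:103406904-103407334) scored 615 and 471 on day 9 and 0 in MEF and serum ESC.

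**Figure D5:**
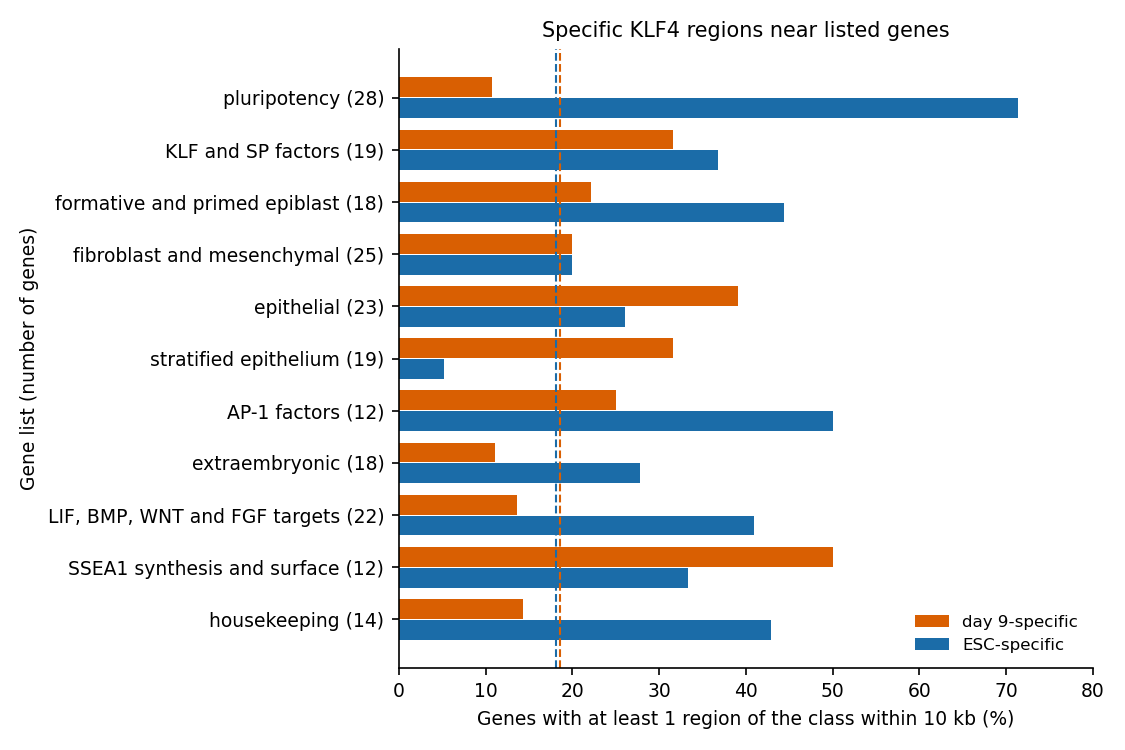
Share of the genes of 11 lists (y axis, number of genes in brackets) with at least 1 day 9-specific or ESC-specific region within 10 kb of the gene body (x axis, percent); dashed lines give the shares among all protein-coding genes, 18.6% and 18.1%. Pluripotency genes reach 71.4% for ESC-specific regions. For day 9-specific ones surface marker genes reach 50.0%, epithelial genes 39.1%, and stratified epithelium genes and KLF and SP factors 31.6% each.

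Most of the genes with most specific regions were long. Cdh13, a cadherin gene of 1184.9 kb, held 13 day 9-specific and no ESC-specific regions, and its KLF4 peaks numbered 24 and 25 on day 9, 5 and 8 in serum ESC and 6 and 7 in 2i ESC. Foxp1, a forkhead factor, held 12 and 0, with 25 peaks in both day 9 libraries and 7 and 13 in serum ESC. Ptgfrn, a partner of tetraspanins, held 8 day 9-specific regions within a body of only 70.5 kb, and had 10 KLF4 peaks in both day 9 libraries and 1 and 4 in serum ESC. Nrxn3, a synaptic protein, held 7, with 8 peaks in both day 9 libraries and 0 in both serum ESC libraries. The genes were ranked on day 9-specific regions, so the gap between the day 9 and serum ESC numbers follows from the choice. In the libraries that the rule did not use, the day 3 and day 6 numbers were 15 to 31 at Cdh13, 25 to 35 at Foxp1, 8 to 12 at Ptgfrn and 3 to 11 at Nrxn3. In 2i ESC they were 6 and 7, 4 and 8, 4 and 3, and 0 and 1. Zmynd8, a reader of histone marks, held 8 ESC-specific regions, with 14 and 18 peaks in serum ESC, 8 and 18 in 2i ESC, 5 and 6 on day 9, 14 and 9 on day 3 and 2 and 6 on day 6. Crtac1, a matrix protein, held 6, with 6 and 10 peaks in serum ESC, 8 and 9 in 2i ESC, 0 and 2 on day 9, 2 and 3 on day 3 and 2 in both day 6 libraries, and H3K27ac peaks there numbered 26 and 29 in serum ESC, 2 in both day 9 libraries and 0 in the 8 others. Zfp978 and Zfp993, with 7 ESC-specific regions each, belong to a cluster of near-identical zinc-finger genes on chromosome 4. Reads can be placed at the wrong copy there, so these counts are uncertain. Whether reads were misplaced was not tested.

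Promoters were overlapped by a common region more often than by a specific one. Of 21044 RefSeq promoters of protein-coding genes, 416 (1.98%) were overlapped by a day 9-specific, 523 (2.49%) by an ESC-specific and 3482 (16.5%) by a common region, and mixed regions were not counted there. The letters GGGNGTG, on either strand, were found in 33.7%, 40.2% and 49.0% of these and in 31.5% of all promoters. The median number of CG dinucleotides was 21, 22 and 26, against 13 in all promoters, and the part of base composition in the shares of GGGNGTG was not tested. The AP-1 letters TGANTCA were found in 4.81%, 7.07% and 3.27%, against 7.04% of all promoters, and the ESRRB-type letters AAGGTCA in 2.88%, 3.44% and 2.18%, against 4.06%. The SOX-type letters AACAATG were found in 1.44%, 0.956% and 1.98%, against 3.22%, and the octamer letters TGCAAAT in 6.97%, 1.15% and 2.79%, against 3.78%. Matches describe these windows and do not show which site was bound. Among the listed genes, the promoters of Elf5, Hprt, Klf17 and Maff lay under a day 9-specific region, those of Gata2, Icam1, Tcl1 and Zfp57 under an ESC-specific one, and those of Nanog, Nr5a2, Tdgf1, Tfcp2l1, Zfp42, Cldn3, Cldn4, Krt8 and others under a common one. Tcl1, a cofactor of AKT in ESC, had KLF4 scores of 34 and 114 in serum ESC, 96 and 79 in 2i ESC and 0 in the 6 reprogramming libraries, and H3K27ac scores of 667 and 393 in serum ESC and 0 in the 10 other libraries. Its promoter, wholly under an ESC-specific region, held no GGGNGTG.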

How the data were processed

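ChIP-seq peak lists of 22 libraries (10 for KLF4, 12 for H3K27ac) were used, and 13 input libraries were not analysed here. The authors deposited 1 list per library, in which each peak has a score, a fold (ratio), a p-value and a q-value, both as −log10, and no summit. The submitters' processing notes name build mm10, cutadapt 1.8.1, Bowtie2 2.2.5, deepTools 2.3.6 and MACS2 2.1.1, without settings. Chromatin had been fixed in 1% formaldehyde, per the labels' protocols. Lists end near p 0.01. Any 2 of the 4 KLF4 lists of day 9 and serum ESC shared at most 15 identical intervals.

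Peaks on chromosomes 1 to 19 and X were merged and compared at a minimum overlap of 1 bp in Python 3.11.15 with numpy 2.4.6 and pandas 2.3.3. Gene starts came from RefSeq promoters of GRCm38.p6, the assembly of mm10, for 17273 of 21627 protein-coding genes; for the other 4354 both gene ends stood in. Promoters of chromosome 18 were not used here. All 5 comparisons used exact permutation tests over libraries with Benjamini-Hochberg adjustment, and counts of regions and genes have no test. Named were the 8 regions of each class with the best mean place in the defining lists, the 8 genes with most regions of a class, and up to 6 members of each of 11 gene lists, described in part; other names were chosen after their values were seen. The members and lists were chosen with earlier results of these data known. Alternatives were an equal number of top peaks (21129), a q-value limit of 0.01, peaks of 200 bp, 50% overlap, other windows, batches alone, a replicate block and leaving out each library. Merging within 500 bp, promoter starts alone, and regions without a near gene start were added after seeing the data. The code was tested on simulated lists.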

Additional observations from a re-analysis of the deposited data

Results flagged for a closer look

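For H3K27ac, the share of ESC-specific minus that of day 9-specific regions was positive in both serum ESC libraries (46.8 and 46.0 percentage points) and negative in both day 9 libraries (−37.7 and −34.9), a difference of 82.7 points between the means. It drew attention because every library of one state moved against every library of the other. This difference between the 2 states was not tested by itself, and the libraries come from batches DG-3458 and EA-3702.

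For KLF4, the same value was positive in both 2i ESC libraries (47.0 and 50.3) and negative in all 4 day 3 and day 6 libraries (−25.0 to −46.1), a difference of 80.7 points (exact permutation p = 0.0667, the smallest possible).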

How the results depend on the processing

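All 5 tested differences kept their sign under every alternative run. With a q-value limit of 0.01, ESC-specific regions numbered 2449 and common regions 4480. Leaving out each defining library gave 6675 to 10354 day 9-specific, 6233 to 17323 ESC-specific and 9406 to 12702 common regions. Fewer libraries loosen the rule, so larger counts were built into this alternative. Equal numbers of top peaks, 200 bp peaks and merging within 500 bp kept all 3 counts within 1.5 times, while the 50% overlap cannot move them, since each peak lies wholly in its merged region. Leaving out each KLF4 or H3K27ac library gave 36.9 to 56.8 points for the H3K27ac difference of ESC (unadjusted exact permutation p = 0.0152 to 0.0909) and −46.1 to −32.6 for that of day 9 (p = 0.0152 to 0.273). Within batch EA-3702 the day 9 difference was −27.5 points (exact permutation p = 0.333), and within DG-3458 the ESC difference was 45.7 points (exact p = 0.0357). With a replicate block, permuting within the numbers 1 and 2 of DG-3458, the ESC difference was 45.7 points with an exact p = 0.0625, the smallest of 16 labelings. The numbers share no pairing that the labels state, and deviations of same-numbered libraries correlated at −0.00496 to 0.00897 over 6 pairs of stages. In regions without a gene start within 2.5 kb the differences were 61.2 and −48.9 points. Of 66 list counts at 2.5 or 50 kb, 42 stayed within 1.5 times. Read depth is unknown, so absence of a peak is not absence of binding, and 2 libraries per state limit each p.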

Other observations

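Chromosome X stood apart from the autosomes in the balance of the 2 specific classes. It held 199 day 9-specific regions (3.16% of that class), 83 ESC-specific regions (1.51%) and 92 common regions (1.02%), so that 70.6% of its specific regions were day 9-specific. On the autosomes that share ran from 45.5% on chromosome 4 to 64.3% on chromosome 16. Over whole KLF4 lists, chromosome X held 2.05% and 1.98% of the peaks on day 9, 1.23% and 1.18% in serum ESC, 1.31% and 1.03% in 2i ESC, 1.91% and 1.41% on day 3 and 1.73% and 1.23% on day 6. For H3K27ac it held 919 of 43974 and 954 of 45506 peaks on day 9 and 2038 of 81971 and 1965 of 81231 in serum ESC (2.49% and 2.42%). In the KLF4 pairs of day 3, day 6 and 2i ESC the EA-3702 library is given first. It had the higher share in each pair, and both day 9 libraries belong to that batch. The part of batch in these shares was not tested. The labels do not give the number of X chromosomes in either kind of cell.

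The letters TGCAAAT, part of the octamer read by POU factors, were found in 29 of the 416 promoters under day 9-specific regions and in 6 of the 523 under ESC-specific regions. The 27 genes of the first group include the histone genes H2ac6 and H2bc14, the interferon factors Irf3 and Irf7, Egr2, Pim2 and the vitamin D receptor Vdr. These letters were picked after the shares of all 5 motifs searched were seen, and the shares carry no test.

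The gene Gas8 had 7 ESC-specific regions within 10 kb and 32 within 50 kb, the latter against 0 day 9-specific ones. KLF4 peaks within 10 kb numbered 11 and 13 in serum ESC, 10 and 13 in 2i ESC, 1 and 3 on day 9, 1 and 9 on day 3 and 5 and 4 on day 6, while H3K27ac peaks numbered at most 1 in any library. Whether reads there map to a single copy was not tested.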
